A study of Homo sapiens with 16 samples.

Results

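The data described here are the RNA levels of 9 genes of the complement system, C3, CFB, CFD, C1R, C1S, CFI, CD46, CD55 and CD59, out of 57820 gene identifiers in the count tables of 2 triple-negative breast cancer cell lines. Members were taken by name, each symbol being matched to its Ensembl identifier, and the set of names was drawn up with earlier results of these data known. The study sorted mesenchymal breast cancer cells by the activity of a Wnt reporter and sequenced the RNA of the sorted sublines, 16 libraries in 8 groups of 2. The lines were MDA-MB-231 and MDA-MB-436, established from human triple-negative tumours, each carrying the stably integrated 7TGP vector, in which repeated Tcf/Lef binding sites drive eGFP. Repeated fluorescence sorting gave from each line an eGFP-negative subline (7TGP-NEG) and an eGFP-positive subline (7TGP-POS). Every group therefore carried the reporter, and no parental line without it was compared. Each subline was grown in low serum (0.5% FBS, collected on day 3) and in standard serum (10% FBS, collected on day 6). The study's methods give a ribosomal RNA depletion kit for the low-serum libraries and a polyA kit on another instrument for the standard-serum libraries, so serum, culture time, library type and sequencing run cannot be told apart. All tests were therefore made within a serum condition, and values of both conditions are set side by side without a test. The methods also give different base media for the lines, so line and medium cannot be told apart. A sorted subline is 1 population per line, and the 2 libraries of a group are replicates of that population, so the p-values measure the spread between such replicates.

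Complement is a cascade of plasma proteases that marks and perforates targets. C1R and C1S are the serine proteases of the C1 complex, which starts the classical pathway. C3 is the central component, and its cleavage fragments label surfaces and recruit leukocytes. CFB and CFD (factors B and D) build the alternative pathway convertase that amplifies C3 cleavage. CFI (factor I) cuts the active C3 and C4 fragments, and needs a cofactor such as CD46 to do so. CD55 speeds the decay of convertases, and CD59 blocks the assembly of the membrane attack complex. Liver makes most plasma complement, while many other cell types, tumour cells among them, make C3 and the C1 proteases locally and carry the membrane inhibitors to limit damage to themselves.

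The genes lie on 6 chromosomes, here in hg19 coordinates. C3 is at chr19:6677715-6730573 on the minus strand and CFD at chr19:859453-867884 on the plus strand. C1R (chr12:7187513-7245203, minus strand) and C1S (chr12:7096351-7178336, plus strand) are neighbours. CFI is at chr4:110652164-110723306 on the minus strand, CD59 at chr11:33724556-33758025 on the minus strand and CFB at chr6:31913427-31919863 on the plus strand. CD55 (chr1:207494864-207560149) and CD46 (chr1:207925382-207968858), both on the plus strand, belong to the cluster of complement regulator genes that also holds CR2 and C4BPB. The RefSeq promoter table (GRCh38.p14) had entries for 7 of the 9 members, in 12 windows of 250 bases before a transcription start; C3 and C1S had none. The most upstream windows of 4 members are shown: C1R and CFI as examples of genes with high levels in MDA-MB-436, and CD55 and CD59 as examples with high levels in MDA-MB-231. Each sequence runs 5′ to 3′ on the strand of its gene, with GRCh38.p14 coordinates, and capitals mark motif matches on either strand.
C1R (chr12:7092446-7092695, minus strand): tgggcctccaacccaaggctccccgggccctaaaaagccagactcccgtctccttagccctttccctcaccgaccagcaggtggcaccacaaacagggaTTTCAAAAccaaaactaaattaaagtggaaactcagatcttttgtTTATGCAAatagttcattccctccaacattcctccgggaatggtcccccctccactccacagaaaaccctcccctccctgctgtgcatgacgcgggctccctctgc
CFI (chr4:109802000-109802249, minus strand): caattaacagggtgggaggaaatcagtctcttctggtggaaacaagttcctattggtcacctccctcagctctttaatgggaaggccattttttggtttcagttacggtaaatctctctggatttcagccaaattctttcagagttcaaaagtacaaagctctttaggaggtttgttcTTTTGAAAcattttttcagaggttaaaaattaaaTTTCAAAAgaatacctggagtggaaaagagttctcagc
CD55 (chr1:207321428-207321677, plus strand): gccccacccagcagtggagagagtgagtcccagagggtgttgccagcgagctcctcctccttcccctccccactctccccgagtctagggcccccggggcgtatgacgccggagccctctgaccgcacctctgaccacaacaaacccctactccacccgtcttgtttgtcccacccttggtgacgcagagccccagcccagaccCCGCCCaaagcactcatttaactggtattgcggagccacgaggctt
CD59 (chr11:33736480-33736729, minus strand): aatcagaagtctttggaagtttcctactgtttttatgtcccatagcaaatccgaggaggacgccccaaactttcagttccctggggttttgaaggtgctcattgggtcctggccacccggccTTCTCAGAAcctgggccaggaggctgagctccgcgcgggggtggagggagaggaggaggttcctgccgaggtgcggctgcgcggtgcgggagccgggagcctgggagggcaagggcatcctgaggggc

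The motifs searched on both strands were C/EBP (TTNNGNAA), STAT (TTCNNNGAA), AP-1 (TGANTCA), TCF/LEF (ATCAAAG), the interferon response element, the GC box (GGGCGG) and NF-kB by its degenerate decamer. The C1R window held 2 C/EBP matches, at -151 to -144 and at -106 to -99 from the start, and a second C1R window held 1 STAT match. The CFI window also held 2 C/EBP matches, at -72 to -65 and at -38 to -31. The CD59 window held 1 STAT match at -128 to -120, and the CD55 window only 1 GC box at -46 to -41. Of all 35093 promoter windows of this length, 33.2% held a C/EBP match, 6.57% a STAT match and 42.6% a GC box. The TCF/LEF letters, found in 2.26% of all windows, occurred in 0 of the 12 member windows, which says only that these letters are absent from these windows.

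The libraries held 27918418 to 32667756 counts in low serum and 31827130 to 46044073 in standard serum. Levels are given as CPM, counts scaled to a common library size by TMM, and 1 CPM stood for 24.41 to 48.66 counts. Of the 8 leukocyte and macrophage markers, TYROBP, AIF1 and CD68 had at most 6 counts in any library, while CD14 had 59 to 321, LYZ up to 261, PTPRC up to 334, CSF1R up to 104 and CD163 up to 35. The canonical CD68 transcript shares 94.9% of its exon bases with another gene on the same strand, so its counts were not read as a level. The 8 summed to 3.64 to 23.1 CPM and the 5 hepatocyte markers to 0.058 to 1.15 CPM, while the mesenchymal markers summed to 930.0 to 7690.0 CPM. In MDA-MB-231 the mesenchymal sum was lower in the 7TGP-POS than in the 7TGP-NEG libraries (4100.0 to 4270.0 against 6970.0 to 7180.0 CPM in low serum), led by VIM. CDH1, the epithelial cadherin, averaged at most 0.307 CPM and the hormone receptor gene ESR1 at most 0.698 CPM in any group. In the same list of 7 epithelial and hormone receptor markers, CLDN4 had 105 to 1868 counts, EPCAM 44 to 270, GATA3 19 to 216 and CLDN3 3 to 202. The 7 summed to 51.7 to 84.5 CPM in MDA-MB-231 and to 9.32 to 16.6 CPM in MDA-MB-436. The eGFP transcript was not analysed here. AXIN2, a feedback target of Wnt signaling, differed between 7TGP-POS and 7TGP-NEG by 0.65 ± 0.112 on the log2 scale (SE, adjusted p = 8.29e-06) in MDA-MB-231 in low serum, by 0.33 ± 0.192 (adjusted p = 0.21) in standard serum. The MDA-MB-436 differences were 0.36 ± 0.185 (adjusted p = 0.106) and -0.12 ± 0.222 (adjusted p = 0.684) for low and standard serum. Of 10 Wnt feedback targets listed, AXIN2 among them, 0 were called in MDA-MB-231 in low serum by edgeR, beside 5.9% of all genes. By adjusted p alone 5 passed (4 higher, 1 lower), beside 38.9% of all genes, and 5 had an unadjusted p under 0.05. RNF43 and TNFRSF19 rose in that line in standard serum, beside 7.69% of all genes called. In MDA-MB-436 TNFRSF19 rose in both conditions, NKD1 and NKD2 fell in low serum and NKD2, RNF43 and SP5 fell in standard serum. The shares of all genes called there were 10.5% (low serum) and 12.5% (standard serum). NKD2, an inhibitor of Wnt signaling, averaged 25.2 ± 0.164 CPM in MDA-MB-436 7TGP-NEG and 4.15 ± 0.0924 in 7TGP-POS in low serum.

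The 2 lines had different sets of complement transcripts. The secreted components C3, C1R and C1S and the regulator CFI were transcribed at far higher levels in MDA-MB-436, and the membrane inhibitors CD55 and CD59 at higher levels in MDA-MB-231. On the length-corrected TPM scale, in which genes can be compared with each other, C1R averaged 528 ± 39.1 (SD, n = 2), C3 387 ± 33.6 and C1S 383 ± 33.5 in MDA-MB-436 7TGP-NEG in low serum, each above at least 98.7% of tested genes. In MDA-MB-231 7TGP-NEG in low serum C3 averaged 1.75 ± 0.0424 TPM and CD59 396 ± 6.7 TPM, the latter above 99.1% of tested genes. The ratio of C3 to CD59 in TPM was 0.00439 and 0.00444 in the 2 libraries of that group and 6.78 and 6.34 in those of MDA-MB-436 7TGP-NEG. In standard serum the same ratio was 0.00046 and 0.000624 against 7.24 and 7.94. The balance between the central component and the terminal inhibitor differed between the lines in every library.

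**Figure D1:**
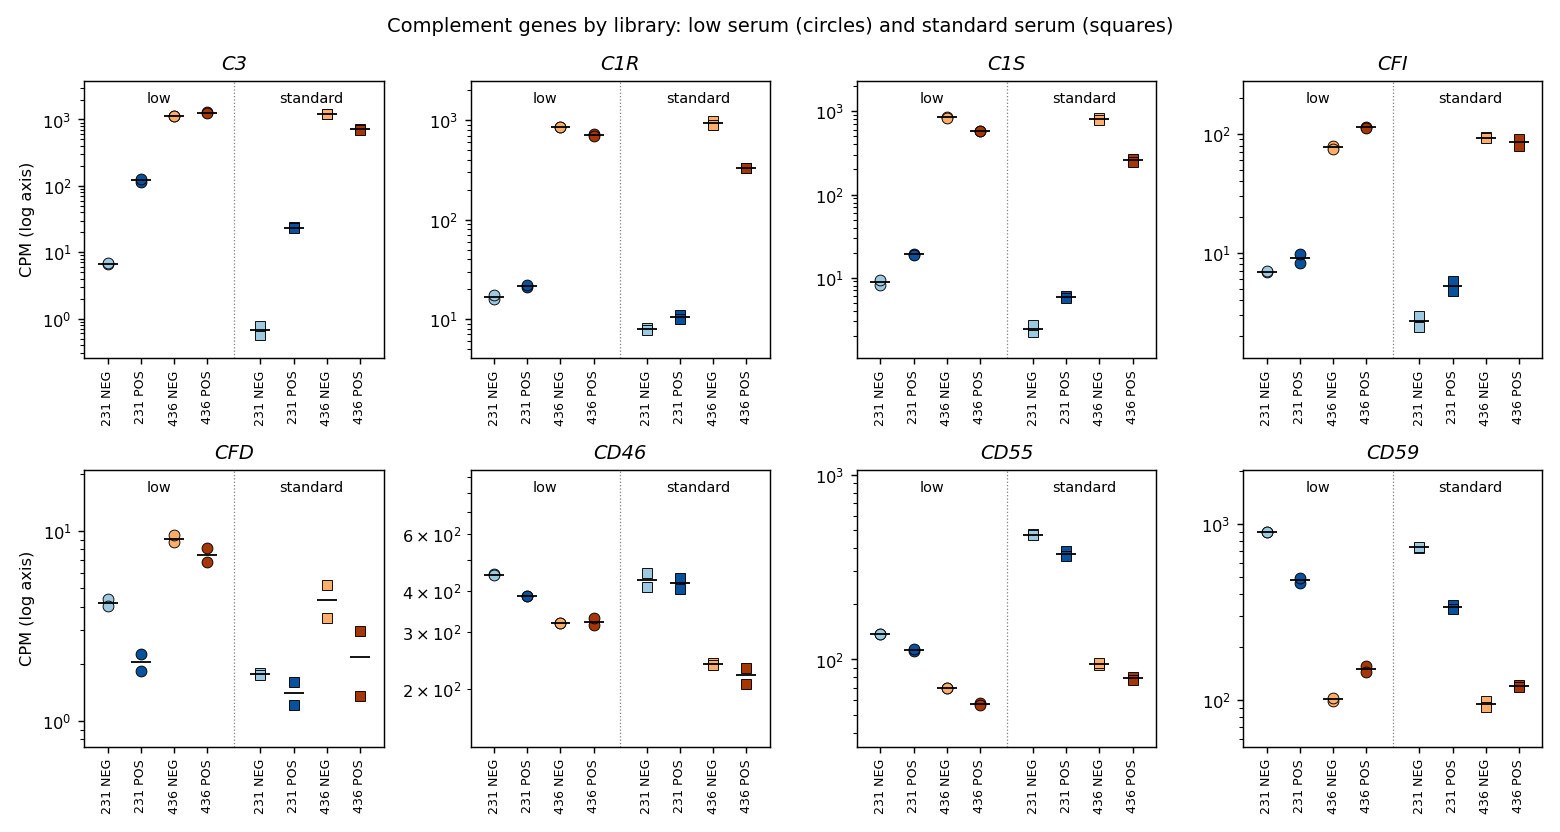
CPM on a log axis for 8 complement genes in each library (points) of the 4 sublines in low serum (circles) and standard serum (squares), with horizontal bars at the mean of 2 libraries; 231 and 436 stand for MDA-MB-231 and MDA-MB-436. C3, C1R, C1S and CFI sit highest in MDA-MB-436, CD55 and CD59 highest in MDA-MB-231, and C3 in MDA-MB-231 is separated by reporter state (6.63 and 6.77 against 115.0 and 126.0 CPM in low serum).

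C3, the central component, was the member with the widest range. In low serum its level was 6.63 and 6.77 CPM in MDA-MB-231 7TGP-NEG, 115.0 and 126.0 in MDA-MB-231 7TGP-POS, 1130.0 and 1110.0 in MDA-MB-436 7TGP-NEG, and 1290.0 and 1240.0 in MDA-MB-436 7TGP-POS. The standard-serum values were 0.564 and 0.771, 23.6 and 23.5, 1210.0 and 1220.0, and 731.0 and 702.0 CPM in the same order. No group overlapped another in either condition, and MDA-MB-231 7TGP-POS lay between its own 7TGP-NEG subline and both MDA-MB-436 sublines. In MDA-MB-231, C3 rose with the reporter by 4.17 ± 0.0738 on the log2 scale (17.9-fold, adjusted p = 4.54e-35, edgeR quasi-likelihood test) in low serum and by 5.14 ± 0.136 (35.4-fold, adjusted p = 3.54e-15) in standard serum. Counts in the 7TGP-NEG libraries were 179 and 179 in low serum but 18 and 22 in standard serum. In MDA-MB-436 the difference was small and its sign differed between conditions, 0.18 ± 0.05 (adjusted p = 0.00242) in low serum and -0.76 ± 0.073 (1.7-fold lower, adjusted p = 1.18e-07) in standard serum, both under the fold threshold. The low-serum value was 0.11 (adjusted p = 0.106) without 7TGP-POS replicate 1 of that line and -0.07 on the TPM scale. The change in MDA-MB-231 exceeded that in MDA-MB-436 by 3.99 ± 0.0907 (adjusted p = 1.81e-31) in low serum and by 5.91 ± 0.158 (adjusted p = 1.71e-14) in standard serum. Even so, C3 in 7TGP-POS cells was 10.5-fold lower in MDA-MB-231 than in MDA-MB-436 in low serum and 30.4-fold lower in standard serum. Between the 7TGP-NEG sublines the gap was 167.0-fold and 1830.0-fold. The 20 tested neighbours of C3 on chromosome 19 had a median log2 change in MDA-MB-231 of -0.01 (low serum) and 0.03 (standard serum). Of them 0 and 1 were called, beside 5.9% and 7.69% of all genes.

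C1R and C1S, the proteases of the C1 complex, were near the top of the transcriptome of MDA-MB-436 and scarce in MDA-MB-231. C1R stood at 15.8 and 17.6 CPM in MDA-MB-231 7TGP-NEG, 21.2 and 21.8 in 7TGP-POS, 862.0 and 858.0 in MDA-MB-436 7TGP-NEG and 732.0 and 695.0 in 7TGP-POS in low serum. In standard serum it stood at 8.11 and 7.78, 10.9 and 10.1, 975.0 and 887.0, and 335.0 and 334.0 CPM. The 4 groups kept the same order in both conditions and did not overlap. In MDA-MB-231 C1R was 0.36 ± 0.0722 (adjusted p = 6.79e-05) and 0.41 ± 0.0974 (adjusted p = 0.00321) higher in 7TGP-POS on the log2 scale, under the fold threshold; on the TPM scale the low-serum difference was 0.14 (adjusted p = 0.346, limma). In MDA-MB-436 it was 0.27 lower in low serum (-0.27 ± 0.0489, adjusted p = 1.09e-05) and fell by 1.48 ± 0.0745 (2.78-fold, adjusted p = 2.12e-11) in standard serum. Of its exon bases 14.3% are shared with C1RL on the same strand, a related protease gene.

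C1S had the direction of C1R in all 4 comparisons of 7TGP-POS with 7TGP-NEG, with larger values in each; that difference between the genes was not tested. Its levels in low serum were 8.22 and 9.35 CPM in MDA-MB-231 7TGP-NEG, 19.5 and 18.9 in 7TGP-POS, 860.0 and 840.0 in MDA-MB-436 7TGP-NEG and 579.0 and 575.0 in 7TGP-POS. In standard serum they were 2.19 and 2.66, 6.06 and 5.75, 840.0 and 791.0, and 267.0 and 249.0 CPM. Again no groups overlapped. C1S rose in MDA-MB-231 7TGP-POS by 1.13 ± 0.08 (2.19-fold, adjusted p = 3.45e-15) and 1.29 ± 0.129 (2.44-fold, adjusted p = 4.03e-07), while in the MDA-MB-436 pair it was lower in low serum (-0.56 ± 0.0482, adjusted p = 5.48e-13) and fell by 1.66 ± 0.0769 (3.16-fold, adjusted p = 6.6e-12) in standard serum. The difference between the lines was 1.69 ± 0.0934 (adjusted p = 1.09e-18) in low serum and 2.95 ± 0.149 (adjusted p = 3.67e-11) in standard serum; for C1R it was 0.63 ± 0.0872 (adjusted p = 8.53e-08) and 1.88 ± 0.122 (adjusted p = 1.04e-09). The TPM ratio of C1R to C1S was 5.01 and 3.97 in MDA-MB-231 7TGP-NEG in standard serum and 2.45 and 2.4 in 7TGP-POS, and it stayed between 1.36 and 1.82 in the MDA-MB-436 libraries of both conditions. In MDA-MB-436 the 20 tested neighbours of C1S on chromosome 12 had a median log2 change of -0.44 (low serum) and -0.6 (standard serum). Of them 3 and 6 were called lower and 0 higher, beside 4.03% and 6.06% of all genes called lower. For MDA-MB-231 against MDA-MB-436 7TGP-NEG in low serum their median was -1.51. There 14 were called lower and 1 higher, beside 21.4% and 20.5% of all genes. These neighbours include C1R, itself called lower in MDA-MB-436 in standard serum and between the lines. The part of the neighbourhood in the result was not tested.

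CFI, the protease that inactivates C3b and C4b, was likewise a secreted gene with its high level in MDA-MB-436. In low serum it stood at 6.85 and 7.04 CPM in MDA-MB-231 7TGP-NEG, 8.21 and 9.79 in 7TGP-POS, 78.8 and 75.3 in MDA-MB-436 7TGP-NEG and 115.0 and 112.0 in 7TGP-POS. The standard-serum libraries held 2.38 and 2.94, 4.79 and 5.81, 94.0 and 91.7, and 90.2 and 79.8 CPM. The groups did not overlap, although the MDA-MB-436 sublines nearly met in standard serum. In MDA-MB-231 CFI was 0.37 ± 0.105 higher in 7TGP-POS in low serum (adjusted p = 0.00418; 0.24, adjusted p = 0.133, without 7TGP-POS replicate 2, and 0.13, adjusted p = 0.453, by limma on log2(TPM + 1)), and in standard serum it rose by 1.0 ± 0.146 (2-fold, adjusted p = 3.01e-05), at the fold threshold itself. The value was 0.85 without 7TGP-NEG replicate 1 or without 7TGP-POS replicate 2 of that line and 0.99 to 1.0 without any 1 of the 4 MDA-MB-436 libraries, all just or further under the fold threshold, and up to 1.16 without either of the others. In MDA-MB-436 it was 0.56 ± 0.0576 higher in low serum (1.47-fold, adjusted p = 7.09e-11; 0.31, adjusted p = 0.0539, by limma on log2(TPM + 0.1)), and in standard serum the difference of -0.13 did not pass the test (95% interval -0.3 to 0.05, adjusted p = 0.267). The change differed between the lines in standard serum (1.13 ± 0.172, adjusted p = 3.99e-05), and in low serum the difference did not pass the test (-0.19, interval -0.42 to 0.05, adjusted p = 0.213). Between the 7TGP-NEG sublines CFI was 11.1-fold lower in MDA-MB-231 in low serum and 35.0-fold lower in standard serum. The TPM ratio of C3 to CFI, a substrate to its protease, was 0.449 and 0.446 in MDA-MB-231 7TGP-NEG in low serum, 6.51 and 5.98 in MDA-MB-231 7TGP-POS and 5.18 to 6.83 in the MDA-MB-436 libraries. In standard serum it was 0.111 and 0.124, 2.29 and 1.88, and 3.77 to 6.2.

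CFD, factor D of the alternative pathway, had low counts in every group. Its counts were 45 to 273 in low serum and 41 to 210 in standard serum. In low serum it stood at 4.37 and 4.01 CPM in MDA-MB-231 7TGP-NEG, 2.25 and 1.84 in 7TGP-POS, 8.75 and 9.47 in MDA-MB-436 7TGP-NEG and 8.1 and 6.88 in 7TGP-POS. In MDA-MB-231 it fell with the reporter by 1.03 ± 0.185 (2.04-fold, adjusted p = 1.51e-05), opposite in sign to C3 and C1S. The value was -0.96 without 7TGP-NEG replicate 1 and -0.9 without 7TGP-POS replicate 2 of that line, under the fold threshold, and -1.18 without 7TGP-POS replicate 1. In standard serum the values were 1.78 and 1.75, 1.6 and 1.22, 3.48 and 5.21, and 1.36 and 2.96 CPM, and the MDA-MB-436 7TGP-POS libraries overlapped both MDA-MB-231 groups. There the reporter-positive MDA-MB-436 subline had CFD reduced (log2 change -1.05 ± 0.346, 2.07-fold, adjusted p = 0.0374), but the value was -0.72 (adjusted p = 0.179) without MDA-MB-436 7TGP-NEG replicate 2 and -0.58 (adjusted p = 0.068) without MDA-MB-436 7TGP-POS replicate 1. Leaving out any of the 4 MDA-MB-231 libraries also ended the call (adjusted p 0.0651 to 0.0915), with the value at -1.05 to -1.04. CFD transcripts hold 66.4% GC against a median of 49.6% over tested genes, and in that 7TGP-POS group the log2 ratio of the 2 libraries went with GC across 12629 genes (r = -0.678, a description across genes), against -0.189 to 0.327 in the other 7 groups. The part of GC in the CFD value was not tested. In MDA-MB-231 in standard serum the CFD difference did not pass the test (-0.33, interval -1.19 to 0.53, adjusted p = 0.629), nor did it in MDA-MB-436 in low serum (-0.28, interval -0.52 to -0.03, adjusted p = 0.0586). That last difference passed in 7 of the alternatives, at -0.28 to -0.53, among them DESeq2 size factors (-0.31, adjusted p = 0.0313) and log2(TPM + 1) (-0.5, adjusted p = 0.00295).

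CFB, factor B, was given no level from these counts. Its libraries held 0 to 2 counts in low serum and 1 to 6 in standard serum. Of the 2476 exon bases of its canonical transcript, 2249 (90.8%) are also exon of the read-through gene that joins C2 to CFB on the same strand (ENSG00000244255, chr6:31895475-31919825), which had 0 counts in every library. STAR gene counting assigns a read only where a single gene matches it, so reads matching both genes would be left out, and CFB reads could be counted from the unshared bases alone. The counts were therefore not read as the level of CFB, nor were those of C2, with 69.9% of its canonical transcript shared. No check on the reads was made. No fold is given for CFB, which had too few counts to be tested in low serum and is among the 9 tested members in standard serum. The 7 members other than CFB and C1R shared 0 exon bases with a gene on the same strand.

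**Figure D2:**
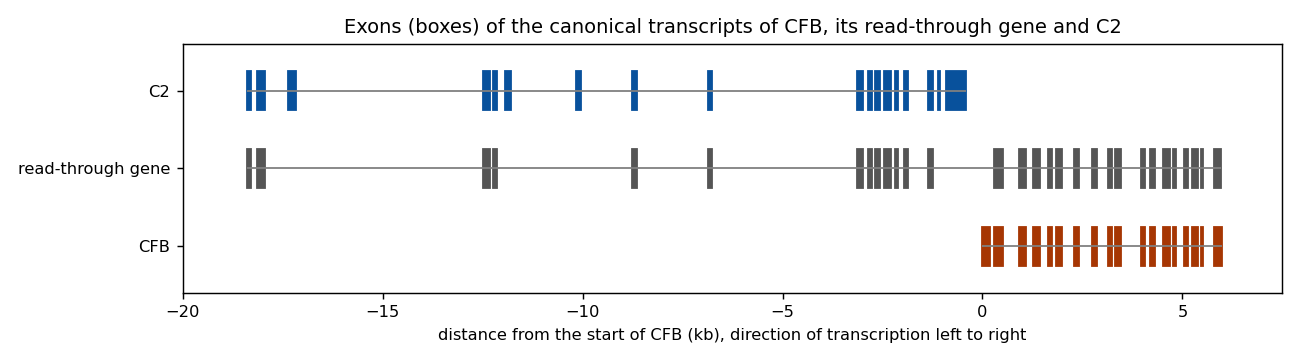
Exons (boxes) of the canonical transcripts of CFB, the read-through gene and C2 by distance from the start of CFB in kb, all transcribed from left to right. Nearly every CFB box has a box of the read-through gene above it, 2249 of 2476 bases, so that a read from there matches 2 genes.

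Of the membrane inhibitors, CD46, the cofactor of factor I, was the steadiest member. In low serum it stood at 451.0 and 448.0 CPM in MDA-MB-231 7TGP-NEG, 387.0 and 386.0 in 7TGP-POS, 320.0 and 319.0 in MDA-MB-436 7TGP-NEG and 314.0 and 331.0 in 7TGP-POS. With standard serum the values were 413.0 and 454.0, 406.0 and 440.0, 240.0 and 238.0, and 233.0 and 208.0 CPM. The highest group mean was 1.41 times the lowest in low serum and 1.96 times in standard serum, against 190.0 and 1810.0 times for C3. With the reporter, CD46 of the MDA-MB-231 pair was lower in low serum (-0.22 ± 0.0479, adjusted p = 0.000254), and the other 3 differences did not pass the test: -0.03 (interval -0.19 to 0.12) in MDA-MB-231 in standard serum, 0.01 (-0.08 to 0.11) in MDA-MB-436 in low serum and -0.12 (-0.27 to 0.04) in standard serum. The direction of the MDA-MB-436 low-serum difference turned with the scaling (-0.02 with DESeq2 size factors). MDA-MB-231 was above MDA-MB-436 by 0.49 ± 0.0481 in 7TGP-NEG and 0.26 ± 0.0481 in 7TGP-POS in low serum on the count scale; on the TPM scale the 7TGP-NEG difference was 0.09 and the 7TGP-POS difference -0.09, neither past the test. In standard serum the differences were 0.86 ± 0.0796 and 0.94 ± 0.0796.

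CD55, the decay-accelerating factor, was higher in MDA-MB-231. Low-serum levels were 138.0 and 137.0 CPM in MDA-MB-231 7TGP-NEG, 111.0 and 114.0 in 7TGP-POS, 69.8 and 70.4 in MDA-MB-436 7TGP-NEG and 58.0 and 56.4 in 7TGP-POS. In standard serum it stood at 478.0 and 471.0, 387.0 and 362.0, 92.8 and 95.9, and 80.5 and 77.8 CPM. No groups overlapped, and 7TGP-POS was the lower subline in all 4 pairs. These differences were small and alike in size: -0.3 ± 0.0515 (adjusted p = 8.52e-06) and -0.34 ± 0.07 (adjusted p = 0.0009) in MDA-MB-231, and -0.29 ± 0.0548 (adjusted p = 1.84e-05) and -0.25 ± 0.0716 (adjusted p = 0.00676) in MDA-MB-436, in low and standard serum. On log2(TPM + 1) the last of these was -0.15 (adjusted p = 0.06, limma). The change did not differ detectably between the lines, with intervals of -0.15 to 0.14 and -0.28 to 0.11 for the difference. Between the lines CD55 was 0.97 higher in MDA-MB-231 in low serum in both reporter states, 1.96-fold, and 2.33 and 2.24 higher in 7TGP-NEG and 7TGP-POS in standard serum, 5.03-fold and 4.73-fold. The 20 tested neighbours of CD55 on chromosome 1 had a median of 0.64 in MDA-MB-231 in standard serum, opposite in sign to CD55. Of them 7 were called higher and 1 lower, beside 4.96% and 2.72% of all genes. In the same comparison, of the regulator genes of that chromosome, CR2 rose by 1.12 ± 0.329 and C4BPB differed by 0.18 ± 0.111 (adjusted p = 0.246).

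CD59, the inhibitor of the membrane attack complex, was the membrane gene that moved most with the reporter, and in opposite directions in the 2 lines. Its low-serum levels were 893.0 and 904.0 CPM in MDA-MB-231 7TGP-NEG, 461.0 and 495.0 in 7TGP-POS, 98.9 and 103.0 in MDA-MB-436 7TGP-NEG and 155.0 and 144.0 in 7TGP-POS. In standard serum, levels of CD59 were 733.0 and 742.0, 344.0 and 328.0, 98.9 and 91.4, and 121.0 and 118.0 CPM. All groups were separate in both conditions. In MDA-MB-231, CD59 of the 7TGP-POS subline was 1.88-fold lower in low serum (-0.91 ± 0.0507, adjusted p = 1.78e-18, under the fold threshold) and fell 2.19-fold in standard serum (-1.13 ± 0.072, adjusted p = 9.14e-10). In MDA-MB-436 the 7TGP-POS subline had the higher level, by 0.56 ± 0.0537 (1.48-fold, adjusted p = 7.56e-12) and 0.33 ± 0.0725 (1.26-fold, adjusted p = 0.00097). The difference between the lines was -1.48 ± 0.0738 (adjusted p = 4.15e-20) in low serum and -1.46 ± 0.102 (adjusted p = 2.88e-09) in standard serum. CD59 remained 3.19-fold higher in MDA-MB-231 than in MDA-MB-436 between the 7TGP-POS sublines in low serum and 2.81-fold in standard serum, against 8.88-fold and 7.76-fold between the 7TGP-NEG sublines.

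**Figure D3:**
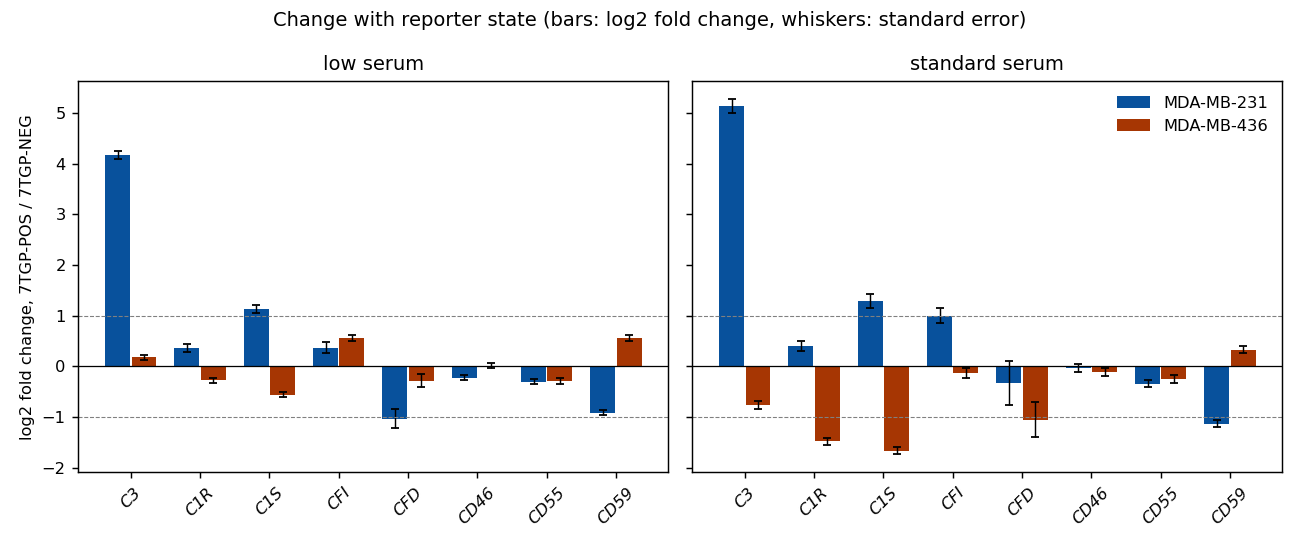
Log2 fold change of 7TGP-POS against 7TGP-NEG (bars, with standard errors) for 8 members in MDA-MB-231 (blue) and MDA-MB-436 (brown), low serum left and standard serum right; dashed lines mark the threshold of 1 in each direction. C3 reaches 4.17 and 5.14 in MDA-MB-231, while C1S and CD59 point in opposite directions in the 2 lines in both conditions.

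Counted together, 3 of 8 tested members were called in MDA-MB-231 in low serum (adjusted p under 0.05 and a log2 change of at least 1 in size), C3 and C1S higher and CFD lower, where 5.9% of 16069 tested genes were called. In standard serum 4 of 9 were called, C3, C1S and CFI higher and CD59 lower, against 7.69% of 15414 genes. In MDA-MB-436 in low serum 0 of 8 were called against 10.5% of all genes by edgeR, and also 0 by DESeq2 and by limma on log2 TPM; 7 of the 8 had an unadjusted p under 0.05. In standard serum 3 of 9 were called in MDA-MB-436, C1R, C1S and CFD, all lower, against 12.5%, of which the CFD call rested on single libraries as given above. The median log2 change of the members was 0.07 and -0.03 in MDA-MB-231 and -0.13 and -0.76 in MDA-MB-436, beside medians of -0.01 and 0 and of 0.01 and 0 over all tested genes. The change itself differed between the lines for 3 of 8 members in low serum (C3, C1S, CD59; 11.7% of all genes) and for 5 of 9 in standard serum (C3, C1R, C1S, CFI, CD59; 13.8%). By adjusted p alone, 8 of 8 members passed in MDA-MB-231 in low serum (38.9% of all genes) and 6 of 9 in standard serum (33%), 6 of 8 and 6 of 9 in MDA-MB-436 (52% and 49.5%), and 6 of 8 and 5 of 9 for the difference between the lines (45.7% and 41.2%). Between the lines 6 of 8 members were called in 7TGP-NEG (41.9% of all genes) and 6 in 7TGP-POS (38.9%) in low serum, and 7 of 9 (46.7%) and 6 of 9 (45.4%) in standard serum.

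**Figure D4:**
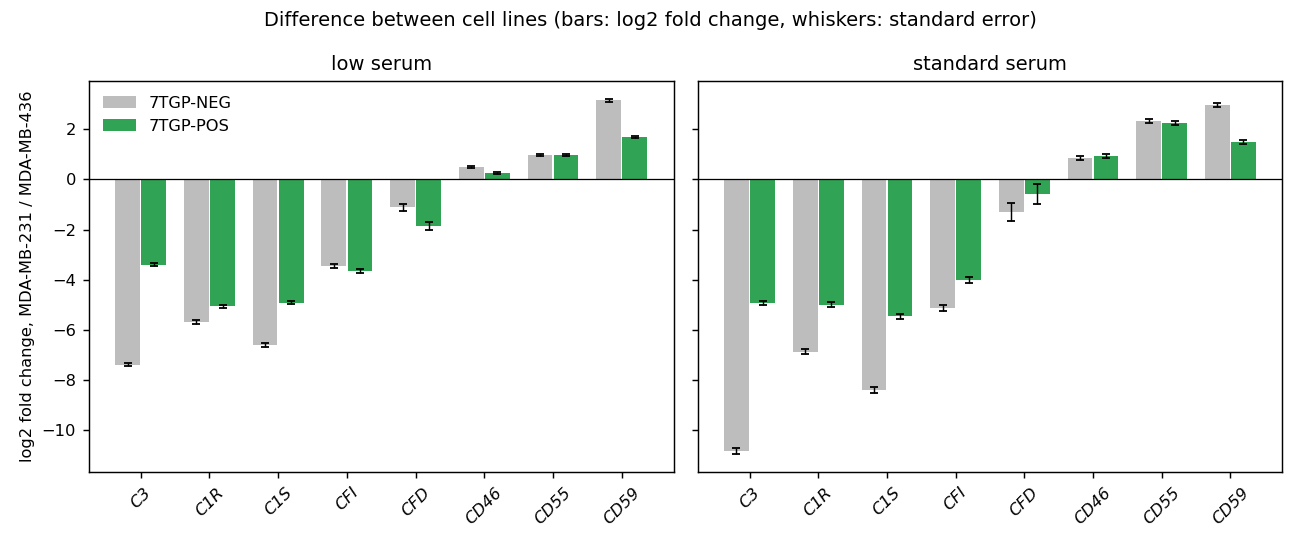
Log2 fold change of MDA-MB-231 against MDA-MB-436 (bars, with standard errors) for 8 members in 7TGP-NEG (grey) and 7TGP-POS (green), low serum left and standard serum right. The secreted genes lie below 0, down to -10.83 for C3 in 7TGP-NEG in standard serum, and CD55 and CD59 lie above it.

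In order of level, several neighbouring groups could not be separated. For CD46 the 2 MDA-MB-436 sublines did not differ beyond their spread in either condition (except -0.21, adjusted p = 0.0442, in standard serum without 7TGP-POS replicate 1), nor did the MDA-MB-231 sublines in standard serum. For CFI this held for the MDA-MB-436 sublines in standard serum, though not without 7TGP-POS replicate 1 (-0.23, adjusted p = 0.048). For CFD the MDA-MB-436 sublines in low serum did not pass the edgeR test but passed in the alternatives given above. In standard serum no separation passed by that test on all libraries for the MDA-MB-231 sublines or for MDA-MB-436 7TGP-POS against both of them. The last of these depended on single libraries: MDA-MB-231 against MDA-MB-436 7TGP-POS was -1.08 without MDA-MB-436 7TGP-POS replicate 1 and 0.04 without replicate 2. C3, C1R, C1S, CD55 and CD59 had 4 separate levels in each condition, with adjusted p under 0.05 for every neighbouring pair by the edgeR test; the exceptions under the alternatives for 7TGP-POS against 7TGP-NEG were C3 in MDA-MB-436 and C1R in MDA-MB-231 in low serum and CD55 in MDA-MB-436 in standard serum, with the values given above.

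Around the members, the rest of the complement system was thinly transcribed. Of 48 other complement genes listed, 29 (low serum) and 27 (standard serum) had enough counts for the test, and C1QA, C1QB and C1QC, the recognition subunits that bind C1R and C1S, had at most 2 counts in any library in low serum. In MDA-MB-231 5 of 29 were called in low serum (3 higher, 2 lower) and 12 of 27 in standard serum (9 higher, 3 lower), with median log2 changes of 0.06 and 0.7, beside 5.9% and 7.69% of all genes called. In MDA-MB-436 7 of 29 (4 higher, 3 lower) and 9 of 27 (2 higher, 7 lower) were called, with medians of 0.34 and 0.02, beside 10.5% and 12.5% of all genes. The count of 12 was 5 with DESeq2, a setting that called 943 of all 15414 genes against 1185 by edgeR. It was also lower without MDA-MB-231 7TGP-NEG replicate 2 or without 7TGP-POS replicate 2. In the map of pathway levels most of these genes lie far under the members.

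**Figure D5:**
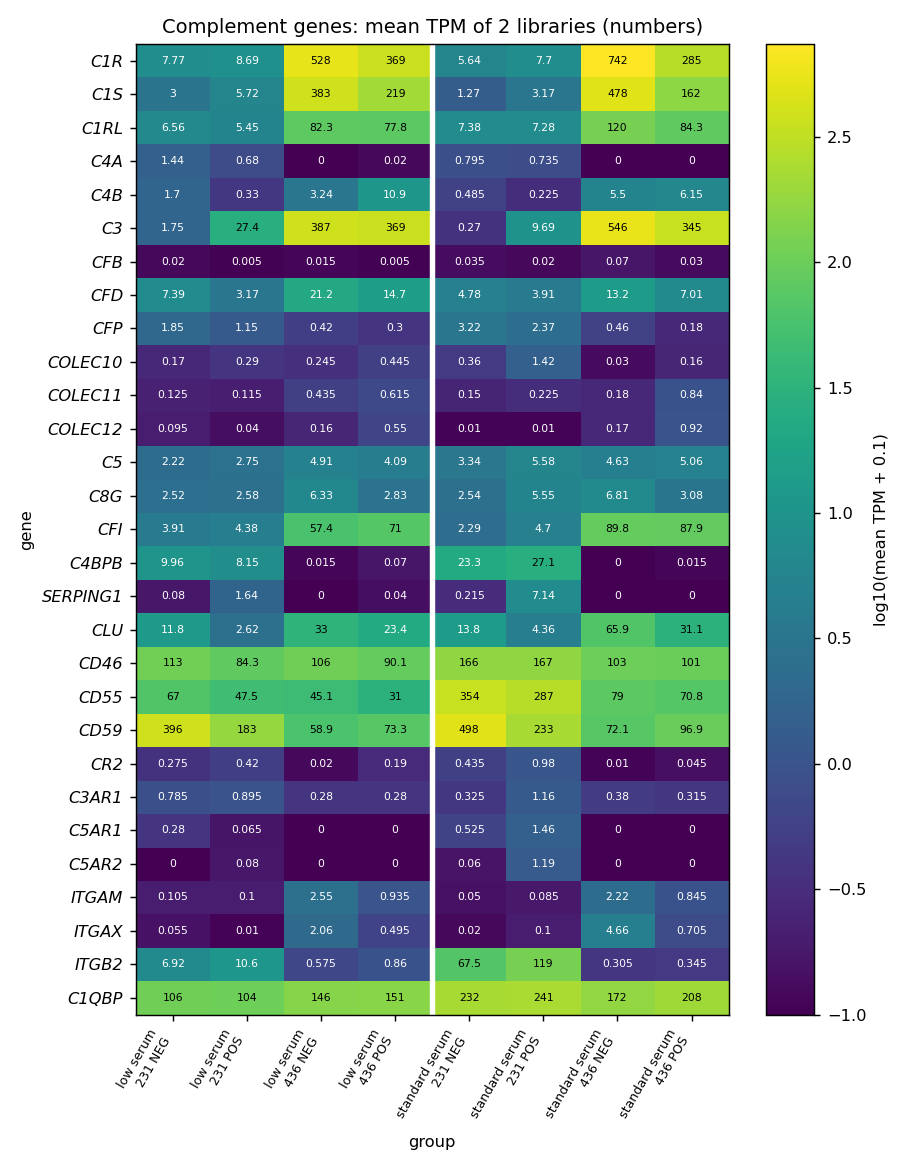
Mean TPM of 2 libraries (numbers; colour is log10 of TPM plus 0.1) for 29 of 57 complement genes, drawn from those with a mean of at least 0.5 TPM in some group, and with CFB among them, in the 8 groups. C1R, C1S, C3 and CFI are highest in MDA-MB-436, and C4BPB is found in MDA-MB-231 and nearly absent in MDA-MB-436.

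The soluble regulators held the changes nearest in size to that of C3. SERPING1, the C1 inhibitor that blocks C1R and C1S, rose in MDA-MB-231 7TGP-POS from 0.131 ± 0.0244 to 3.08 ± 0.47 CPM (SD, n = 2) in low serum and from 0.232 ± 0.0185 to 7.51 ± 0.668 in standard serum, by 4.51 ± 0.415 (adjusted p = 8.51e-12) and 5.0 ± 0.284 (adjusted p = 1.17e-09) on the log2 scale. In MDA-MB-436 it was at or under 3 counts in every library, so between the 7TGP-POS sublines it was at least 29.1-fold higher in MDA-MB-231 in low serum against a floor of 3 counts per library. CLU, clusterin, an inhibitor of the terminal complex, fell in MDA-MB-231 7TGP-POS by 1.97 ± 0.0816 and 1.7 ± 0.0961, and in MDA-MB-436 by 1.18 ± 0.0819 in standard serum (-0.25 ± 0.0595 in low serum, adjusted p = 0.000542). C4BPB, a chain of C4b-binding protein, stood at 13.8 to 25.4 CPM on average in the MDA-MB-231 groups and at most at 0.0907 in MDA-MB-436. SERPING1 and C4BPB were thus higher in the line in which C1R, C1S and CFI were lower.

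Among the other components, C4A and C4B, which encode the C4 that C1S cleaves, are near-identical copies, so their separate counts are uncertain. C4B fell in MDA-MB-231 7TGP-POS by 2.14 ± 0.185 and 1.15 ± 0.309 and rose in MDA-MB-436 7TGP-POS in low serum by 1.99 ± 0.0978, with 0.06 ± 0.138 in standard serum. C5 differed in MDA-MB-231 by 0.51 ± 0.129 and 0.7 ± 0.135 and in MDA-MB-436 by -0.02 ± 0.114 and 0.03 ± 0.13. C8G, a chain of the terminal component C8, rose in MDA-MB-231 7TGP-POS by 1.07 ± 0.32 and fell in the MDA-MB-436 pair by 1.26 ± 0.289, both in standard serum, at group means of 0.778 to 1.86 CPM. C1RL stood at 143.0 ± 0.333 CPM in MDA-MB-436 7TGP-NEG and 15.1 ± 0.816 in MDA-MB-231 7TGP-NEG in low serum, as C1R and C1S did, and in MDA-MB-436 in standard serum it was 0.61 lower in 7TGP-POS (-0.61 ± 0.0857, adjusted p = 1.19e-05). In the lectin pathway COLEC12 rose in MDA-MB-436 7TGP-POS by 2.04 ± 0.433 and 2.33 ± 0.398, up to about 1 CPM.

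Of the receptors, those for the C3 and C5 fragments were scarce. In standard serum C3AR1, C5AR1, C5AR2, CR2 and ITGAX rose in MDA-MB-231 7TGP-POS, 5 of 8 tested, beside 7.69% of all genes called. All were at group means of at most 1.4 CPM. In the 7TGP-NEG libraries C5AR2 and ITGAX were at or under 3 counts. These 5 are among the 12 called genes whose number was lower in the alternatives given above. In low serum 0 of 8 were called there by edgeR (3 with an unadjusted p under 0.05), beside 5.9% of all genes. ITGAM and ITGAX, chains of complement receptors 3 and 4, fell with the reporter in MDA-MB-436, by 1.22 ± 0.194 and 1.83 ± 0.24 in low serum and by 1.48 ± 0.214 and 2.81 ± 0.189 in standard serum. ITGAX stood at 8.11 ± 0.56 CPM in MDA-MB-436 7TGP-NEG and 1.15 ± 0.18 in 7TGP-POS in standard serum. ITGB2, their shared chain, had its high level in the other line, 137.0 ± 5.46 CPM in MDA-MB-231 7TGP-NEG and 0.55 ± 0.204 in MDA-MB-436 7TGP-NEG. The leukocyte marker PTPRC was likewise higher in MDA-MB-231, at 2.19 to 10.0 CPM against 0.139 to 0.346, and rose there in 7TGP-POS in low serum by 1.14 ± 0.188; the part of such cells or genes in these values was not tested. Of the same markers, LYZ and CSF1R were also called higher in MDA-MB-231 and CD163 lower, and LYZ went from 9.47 ± 0.57 CPM in 7TGP-NEG to 4.84 ± 0.056 in 7TGP-POS in low serum, while TYROBP and AIF1 were at or near 0.

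Acute phase genes, which liver induces in inflammation as it does C3, changed in both directions. In MDA-MB-231 7TGP-POS 8 of 15 tested were called in low serum (4 higher, 4 lower) and 8 of 14 in standard serum (6 higher, 2 lower), and in MDA-MB-436 3 of 15 (3 higher) and 3 of 14 (2 higher, 1 lower). The shares of all genes called were 5.9% and 7.69% in MDA-MB-231 and 10.5% and 12.5% in MDA-MB-436. SAA1, serum amyloid A, rose in MDA-MB-231 by 2.05 ± 0.105 and 2.5 ± 0.126, LCN2, lipocalin 2, by 1.26 ± 0.217 and 2.8 ± 0.174, and PTX3, a pentraxin that binds C1q, by 1.85 ± 0.0532 and 1.64 ± 0.0723. SERPINA1, an antiprotease, fell by 1.72 ± 0.156 and 2.17 ± 0.188. In MDA-MB-436 SAA1 and LCN2 were higher in low serum (0.49 ± 0.0607 and 1.09 ± 0.052) and lower in standard serum (-0.38 ± 0.0839 and -0.47 ± 0.0701). CP, ceruloplasmin, rose there by 6.5 ± 0.28 and 3.32 ± 0.327, beyond any member in that line. Its counts ran from 2 to 355 over the low-serum libraries and from 5 to 105 over those of standard serum.

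Over the 8 libraries of each condition, the genes most like C3 in log2 CPM among 12520 were FOXA1, SLITRK5 and LAS1L, with the lower of the 2 values of r at 0.9909, 0.9898 and 0.9891. CFI was most like PI3, RARRES1 and LCN2 (0.9988, 0.9984 and 0.9962), C1R most like CMPK2, PLBD1 and KCNQ1 (0.9978, 0.9978 and 0.9977), and CD59 most like LIPG, UACA and MYO5C (0.9953, 0.9953 and 0.9945). The points share 2 cell lines and high values were common: 12.3% of genes reached 0.95 with C1R, 10.7% with CFI and 4.17% with CD59, against 0.975% with C3.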

How the data were processed

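RNA-seq of 16 libraries was analysed from gene tables that the authors deposited as counts and as TPM. Per the study's methods, reads were aligned to hg19 with STAR after removal of ribosomal reads and counted per gene of the GENCODE annotation; the submitters' processing notes name STAR 2.6.1a. The study's labels name 1 library kit for all samples, while its methods give different kits for the serum conditions. Symbols, positions and exons came from GENCODE release 44 lifted to GRCh37, which matched 55538 of 57820 identifiers. The members and all lists were chosen with earlier results of these data known.

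Each serum condition was fitted alone with edgeR 4.0.16 (R 4.3.3; robust quasi-likelihood test, TMM scaling, 4 groups, no replicate block) on protein-coding genes whose 8 libraries together held 10 counts or more, 16069 in low and 15414 in standard serum. P-values were adjusted by Benjamini-Hochberg over all tested genes, and a gene was called at an adjusted p under 0.05 and a log2 fold change of at least 1 in size. "Rose" and "fell" are used for called genes. Errors of log2 changes are standard errors, and other errors are SDs. Intervals are 1.96 standard errors each way. Deposited TPM values served to compare genes with each other and, as log2(TPM + 1) and log2(TPM + 0.1), for limma 3.58.1; folds on that scale understate changes of low genes. Folds against groups with at most 3 counts per library were bounded with that floor, a limit on counting error alone. The 2 diagonal comparisons between lines and states, used for the order of levels, were added after the data were seen, as were the alternatives for the other complement genes. On simulated counts of the MDA-MB-231 comparison, the share called of 200 genes given a 4-fold change was 98% (low serum, 16069 genes) and 97.5% (standard serum, 15414 genes), with 3 and 0 other genes called. Other genes were named if called in at least 1 comparison of 7TGP-POS with 7TGP-NEG or to give a list's count, and the 3 most alike genes by Pearson r of log2(CPM + 0.5). Neighbours were the 10 tested genes on each side. Alternatives were DESeq2 1.42.0, its size factors, other filters and gene types, only the groups compared, TPM, a replicate block and leaving out each library. Some listed genes count in the list totals but are not reported by name here.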

Additional observations from a re-analysis of the deposited data

Results flagged for a closer look

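The change from 7TGP-NEG to 7TGP-POS was not the same in the 2 lines by a test of the difference itself in the edgeR model (adjusted p under 0.05 over all tested genes), for 6 members in low serum and 5 in standard serum. In low serum the log2 change of MDA-MB-231 less that of MDA-MB-436 was 3.99 for C3, 1.69 for C1S and 0.63 for C1R, and it was -1.48 for CD59, -0.75 for CFD and -0.23 for CD46. In standard serum it was 5.91 for C3, 2.95 for C1S, 1.88 for C1R, 1.13 for CFI and -1.46 for CD59. Those of C1R, CFD and CD46 in low serum were under a log2 difference of 1. CD46 lost its significance in low serum with all gene types (-0.19), on the TPM scales (-0.18) and without MDA-MB-436 7TGP-POS replicate 2 (-0.15), and CFD lost it with DESeq2 (-0.7, adjusted p = 0.0567) and without MDA-MB-436 7TGP-POS replicate 1 (-0.57). With 2 libraries a group, single libraries within a group were not tested for standing apart.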

How the results depend on the processing

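Of the alternatives for log2 changes of 8 members, 1277 kept their direction and side of the threshold, 29 lost significance, 12 gained it and 26 turned in sign, all 26 among values within 0.6 of 0; the cause was not tested. By adjusted p alone the members counted were 8 (MDA-MB-231) and 6 (MDA-MB-436) in low serum, 6 in MDA-MB-436 in standard serum and 6 for the difference between the lines in low serum. With limma on log2(TPM + 1), 2 members were called in MDA-MB-231 in standard serum. Leaving out 1 library gave 2 to 3 called members in MDA-MB-231 in low serum, 3 to 4 in standard serum, 0 and 2 to 3 in MDA-MB-436, 3 and 4 to 6 for the difference between the lines, 6 and 6 to 7 between the 7TGP-NEG sublines, and 6 to 7 and 6 to 8 between the 7TGP-POS sublines. A group left with 1 library was assumed to vary like the others.

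The C3 change in MDA-MB-436 in low serum was -0.07 on either TPM scale, and that of CD46 was -0.02 with DESeq2 size factors, DESeq2 or filterByExpr, -0.23 and -0.24 on the TPM scales and -0.06 to 0.01 without 1 library. The CD55 difference between the lines in low serum was 0.04 with DESeq2 size factors, DESeq2, filterByExpr, all gene types and both TPM scales, and -0.02 to 0.07 without 1 library. CD46 between the 7TGP-POS sublines in low serum was -0.09 on the TPM scales, and its change in MDA-MB-231 in standard serum was 0.0 on these and -0.1 to 0.03 without 1 library. CFD between the 7TGP-POS sublines in standard serum ran from -1.08 to 0.04 without 1 library, 0.04 being without MDA-MB-436 7TGP-POS replicate 2. The other complement genes called in MDA-MB-231 were 3 and 4 on log2(TPM + 1), and in MDA-MB-436 2 and 3 (low, standard serum). That setting called fewer genes of all kinds, 302 and 522 in MDA-MB-231 and 793 and 941 in MDA-MB-436. With a replicate block, 80 of 80 member values kept their direction and their side of the adjusted p threshold of 0.05. Deviations of same-numbered libraries correlated at -0.21 to 0.0797 in low serum and -0.0509 to 0.405 in standard serum, with 0.405 and 0.236 within MDA-MB-231 and MDA-MB-436 in the latter. No label says that a number marks a shared culture or day, so the numbers were not taken as pairs. Called genes went with the block from 948 to 926 and 1185 to 1170 in MDA-MB-231 and from 1694 to 1667 and 1932 to 1938 in MDA-MB-436 (low, standard serum).

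CFD, the scarce receptor genes and C3 in MDA-MB-231 7TGP-NEG in standard serum rest on few counts. Sublines were 1 per line and state, and 2 libraries a group give a coarse estimate of spread. Transcripts were measured, not protein, secretion or surface level.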

Other observations

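Between the cell lines, the genes around the members were set beside the members themselves in 1 comparison, in which 45.4% of all tested genes were called. Of the 20 tested neighbours of CD55, 13 were called higher and 1 lower in the MDA-MB-231 than the MDA-MB-436 7TGP-POS subline under standard serum (median log2 difference 1.97), beside 2.24 for CD55 itself. For CD46, whose neighbours lie in the same part of chromosome 1, there were 12 higher and 2 lower (median 1.94), beside 0.94 for CD46. For CD59 2 were higher and 3 lower (median -0.17), beside 1.49. For C3 9 were higher and 5 lower (median 1.02), beside -4.93. Around C1R 4 were higher and 10 lower and around C1S 3 and 11, 2 genes that lie side by side and count among each other's neighbours. Around CFI 2 were higher and 5 lower, and around CFD 2 and 3. The neighbour medians around CD55 and CD46 were smaller in the other comparisons between the lines. In 7TGP-NEG in standard serum they were 1.36 for CD55 and 1.43 for CD46. In low serum they were 0.41 (7TGP-NEG) and 0.46 (7TGP-POS) for CD55, and 1.16 and 0.46 for CD46. The part of location in the levels of the members was not tested.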
